A study of Homo sapiens with 33 samples.

Results

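Untreated TLE1 knockout cells were compared with untreated parental Nalm6 cells by RNA sequencing, using 6 of the 33 libraries of the series: 3 of the knockout (titled TLE1_KO_Ctrl) and 3 of the parental line (titled Nalm6_Ctrl). Nalm6 is an established human B-cell precursor acute lymphoblastic leukaemia line, and the knockout is a CRISPR/Cas9-edited derivative of it. Both groups were untreated and, per the labels, both were grown in RPMI-1640 medium with charcoal-stripped serum, which is depleted of steroids. Whether the knockout is 1 clone or a pool of edited cells, and which part of TLE1 was cut, is not given in the sources used here. The series text speaks of 3 independent experiments. A second set of 3 untreated parental libraries (titled Nalm6_Dex_Ctrl, the controls of the dexamethasone arm) is used below only for side-by-side values. So are the prednisolone-treated libraries of both lines (5 µM for 24 h, 3 each) and the dexamethasone-treated knockout libraries (100 nM for 24 h, 3 libraries). In 1 alternative fit the prednisolone-treated libraries and parental libraries treated with CHIR-99021 (0.5 µM for 24 h, 3 libraries) were added.

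TLE1 belongs to the Groucho/TLE family of co-repressors. These proteins do not bind DNA themselves; transcription factors such as TCF/LEF proteins, PAX5, RUNX and HES proteins bring them to target genes, where they help keep transcription low. In the Wnt pathway they occupy TCF/LEF factors until beta-catenin displaces them, and in B-cell precursors PAX5 uses Groucho proteins to silence genes of other lineages.

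Sequencing depth, as gene counts in units of 1000000, was 61.9, 49.0 and 57.4 in the parental libraries and 28.8, 32.7 and 31.1 in the knockout. Knockout replicate 3 stood apart from its group: its counts differed from those of knockout replicates 1 and 2 with a chi-square per degree of freedom of 29.3 and 33.0, against 17.7 between those 2 and 2.54 to 4.13 among the parental libraries. The 2 untreated parental sets, which carry the same label of cell line and no treatment, differed from each other in 8774 of 17478 genes tested, 1236 of them with a log2 difference of 1 or more in either direction, so a difference between 2 sets of libraries and a difference between knockout and parental cells cannot be told apart by the main comparison alone. Counts or levels against the second parental set are therefore given beside most of the gene lists and many of the single genes. All 6 libraries carried the defining markers of B-cell precursors (PAX5, EBF1, CD79A and VPREB1), from 51.3 to 710 CPM. CPM are gene counts scaled to a library total of 1000000. The T-cell markers CD3D and CD3E and the erythroid factor GATA1 were at 0 in each. Other markers of these and further lineages were low but not absent. NKG7 was 2.05 to 3.26 CPM, CD247 and MPO reached 1.21 and 1.07 CPM in parental libraries, and HBB was 0.428 CPM in parental replicate 2.

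TLE1 mRNA itself was 30.2, 34.0 and 31.8 CPM in the parental libraries and 25.4, 24.0 and 24.0 CPM in the knockout libraries. The groups did not overlap, and the log2 fold change (knockout minus parental, as everywhere below) was -0.36 ± 0.06 (standard error; adjusted p = 0.002). Against the second parental set, which had 26.0 to 27.9 CPM, the difference was -0.17 (adjusted p = 0.058). Most TLE1 reads were thus still present in the libraries labelled knockout. Without knowing the edited exon, these counts cannot check the label. Of the related genes, TLE2 rose from 6.35, 6.63 and 7.75 CPM to 16.4, 17.5 and 14.7 CPM (log2 1.26 ± 0.10), and it was 7.97 to 10.4 CPM in the second parental set. TLE6, a divergent family member, rose by 0.66 ± 0.10 on the log2 scale but was at 7.84 to 8.59 CPM in the second parental set, no lower than its 6.70 to 8.16 CPM in the knockout. TLE4 was 275 to 291 CPM in the parental and 265 to 283 CPM in the knockout libraries and did not pass the test (adjusted p = 0.873), and TLE3 had 0 counts in each of the 6 libraries.

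Of 17208 genes tested with edgeR's quasi-likelihood test, 4655 were called at an adjusted p under 0.05, which is 27.1% of those tested. They divide into 2631 higher in the knockout (15.3%) and 2024 lower (11.8%). Counting only log2 differences of 1 or more in either direction left 792 (4.6%), 433 of them higher (2.52%) and 359 lower (2.09%). These shares are the background against which the member counts below are to be read. Against the second parental set 5961 genes were called, 3183 higher and 2778 lower. Member counts against that set are to be read beside these larger totals. The number of genes tested against it is not given here, so the totals carry no percentage. Leaving out 1 parental library reduced the calls of the main comparison to 2804, 2847 or 2939 for replicates 1, 2 and 3. Leaving out knockout replicate 3 raised them to 6732. Both lines were also compared in prednisolone-treated libraries, which share no library with the untreated ones. That contrast also holds any difference between the lines in their response to the drug. In it 5612 of 17286 genes (32.5%) were called, 2910 higher in the knockout and 2702 lower. Of the 792 larger untreated differences, 696 were tested under prednisolone, and 544 of these (78.2%) were called in the same direction, 7 in the opposite direction and 145 not at all; among all genes tested untreated and under prednisolone 28.8% were called there in their untreated direction.

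The clearest difference between the lines was a group of 14 genes with at most 3 counts in each knockout library and a mean of at least 1 CPM in the parental cells. No gene had the reverse pattern, but 3 counts are a lower level in the deeper parental libraries, so the limit was stricter there. The promoter windows of 5 of them are shown because these genes went from steady transcription to almost none, and CG dinucleotides, the sites of DNA methylation, are in capitals. Sequences are from RefSeq on GRCh38.p14 and run 5′ to 3′ on the strand of the gene, from 250 bases before to 50 bases after its start. The windows are chr12:117190421-117190720 on the minus strand for FBXO21, chr7:143263191-143263490 on the plus strand for GSTK1, chrX:68498801-68499100 on the plus strand for YIPF6, chr13:113584503-113584802 on the plus strand for TFDP1 and chr19:56477296-56477595 on the minus strand for ZNF667.
FBXO21: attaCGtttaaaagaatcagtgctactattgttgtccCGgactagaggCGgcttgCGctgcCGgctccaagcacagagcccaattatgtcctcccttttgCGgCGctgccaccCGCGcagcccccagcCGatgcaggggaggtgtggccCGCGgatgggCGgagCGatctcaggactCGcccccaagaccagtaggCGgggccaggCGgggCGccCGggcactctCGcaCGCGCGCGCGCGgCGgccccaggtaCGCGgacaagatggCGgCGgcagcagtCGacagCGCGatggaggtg
GSTK1: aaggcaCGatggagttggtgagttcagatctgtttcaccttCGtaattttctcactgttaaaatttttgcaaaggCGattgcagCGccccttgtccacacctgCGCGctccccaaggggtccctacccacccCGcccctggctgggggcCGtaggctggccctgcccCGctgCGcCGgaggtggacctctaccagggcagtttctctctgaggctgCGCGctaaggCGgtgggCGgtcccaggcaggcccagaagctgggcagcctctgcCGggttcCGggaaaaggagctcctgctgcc
YIPF6: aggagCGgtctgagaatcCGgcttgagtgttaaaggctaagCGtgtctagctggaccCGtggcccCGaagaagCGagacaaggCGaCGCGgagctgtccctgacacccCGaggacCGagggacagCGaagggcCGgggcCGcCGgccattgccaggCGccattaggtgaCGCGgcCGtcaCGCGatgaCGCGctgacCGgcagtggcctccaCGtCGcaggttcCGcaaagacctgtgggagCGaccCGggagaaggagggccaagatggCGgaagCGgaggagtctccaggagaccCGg
TFDP1: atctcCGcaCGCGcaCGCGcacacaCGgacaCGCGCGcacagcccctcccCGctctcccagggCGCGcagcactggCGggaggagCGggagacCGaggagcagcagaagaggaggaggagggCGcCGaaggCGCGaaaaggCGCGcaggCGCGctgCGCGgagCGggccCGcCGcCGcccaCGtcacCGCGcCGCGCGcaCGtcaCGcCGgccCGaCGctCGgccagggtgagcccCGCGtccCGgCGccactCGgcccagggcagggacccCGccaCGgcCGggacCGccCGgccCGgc
ZNF667: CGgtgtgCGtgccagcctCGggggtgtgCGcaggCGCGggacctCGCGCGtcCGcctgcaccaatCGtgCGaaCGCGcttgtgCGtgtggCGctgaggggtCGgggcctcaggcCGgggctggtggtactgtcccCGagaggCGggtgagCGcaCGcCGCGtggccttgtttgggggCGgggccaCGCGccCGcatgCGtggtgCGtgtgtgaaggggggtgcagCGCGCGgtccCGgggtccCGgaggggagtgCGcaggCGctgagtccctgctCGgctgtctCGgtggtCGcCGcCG
The windows hold 34 CG dinucleotides in FBXO21, 17 in GSTK1, 32 in YIPF6, 52 in TFDP1 and 42 in ZNF667. The ratio of observed to expected CG was 0.99, 0.57, 0.97, 1.09 and 1.03 in the same order, against a median of 0.84 over the 10681 tested genes with a window. Of the 14 genes 11 have a window, with a median ratio of 0.87; those not printed include lower ratios, 0.14 in CTSG, 0.24 in GAS2L3 and 0.62 in ANK2. DNA methylation was not measured in these libraries.

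FBXO21, which encodes an F-box protein that selects substrates for an SCF ubiquitin ligase, was 6.81, 6.88 and 7.38 CPM in the parental cells and had 0 counts in every knockout library, at least 67.4-fold lower when set against 3 counts in the shallowest knockout library. GSTK1, a glutathione transferase of mitochondria and peroxisomes, was 3.81, 4.80 and 3.88 CPM in the parental cells and also 0 in all 3 knockout libraries (at least 39.9-fold lower). YIPF6, a Golgi membrane protein encoded on the X chromosome, was 3.96, 3.29 and 3.71 CPM against 0 (at least 35.0-fold lower). GNPDA1, which deaminates glucosamine 6-phosphate, and MINPP1, a phosphatase of inositol phosphates in the endoplasmic reticulum, were likewise at 0, at least 17.5-fold and 9.61-fold lower. All 5 were present in the second parental set, where their means ran from 1.66 CPM (MINPP1) to 8.41 CPM (FBXO21).

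The other 9 genes kept between 1 and 9 counts over the 3 knockout libraries. TFDP1 encodes DP1, the partner with which E2F factors bind DNA. It had 23.8, 23.3 and 22.4 CPM in the parental libraries and 3 counts in each knockout library, a ratio of 239 (95% exact counting interval 126 to 522). Its paralog TFDP2, looked up after the values of TFDP1 were seen, rose from 164, 167 and 164 CPM to 214, 224 and 224 CPM (log2 0.45 ± 0.05). FBXO25, another F-box gene, fell by a ratio of 347 (96.0 to 2.87e+03), and CRISPLD1, which encodes a secreted cysteine-rich protein, by 680 (122 to 2.69e+04). ANK2, which encodes the membrane adaptor ankyrin-B, had a ratio of 148 (63.1 to 455). ZNF667, a KRAB zinc finger gene, fell by 81.0 (41.0 to 188) together with ZNF667-AS1, which starts from the opposite strand beside it, by 95.2 (26.1 to 789). CTSG, the neutrophil granule protease cathepsin G, fell by 77.7 (33.1 to 240), GAS2L3, a linker of actin and microtubules, by 158 (28.2 to 6.28e+03), and KRT80, a keratin gene, by 19.8 (8.33 to 61.7).

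The same 14 genes were near 0 in the treated knockout libraries too: the largest sum over 3 libraries was 9 counts under prednisolone and 10 counts under dexamethasone.

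**Figure D1:**
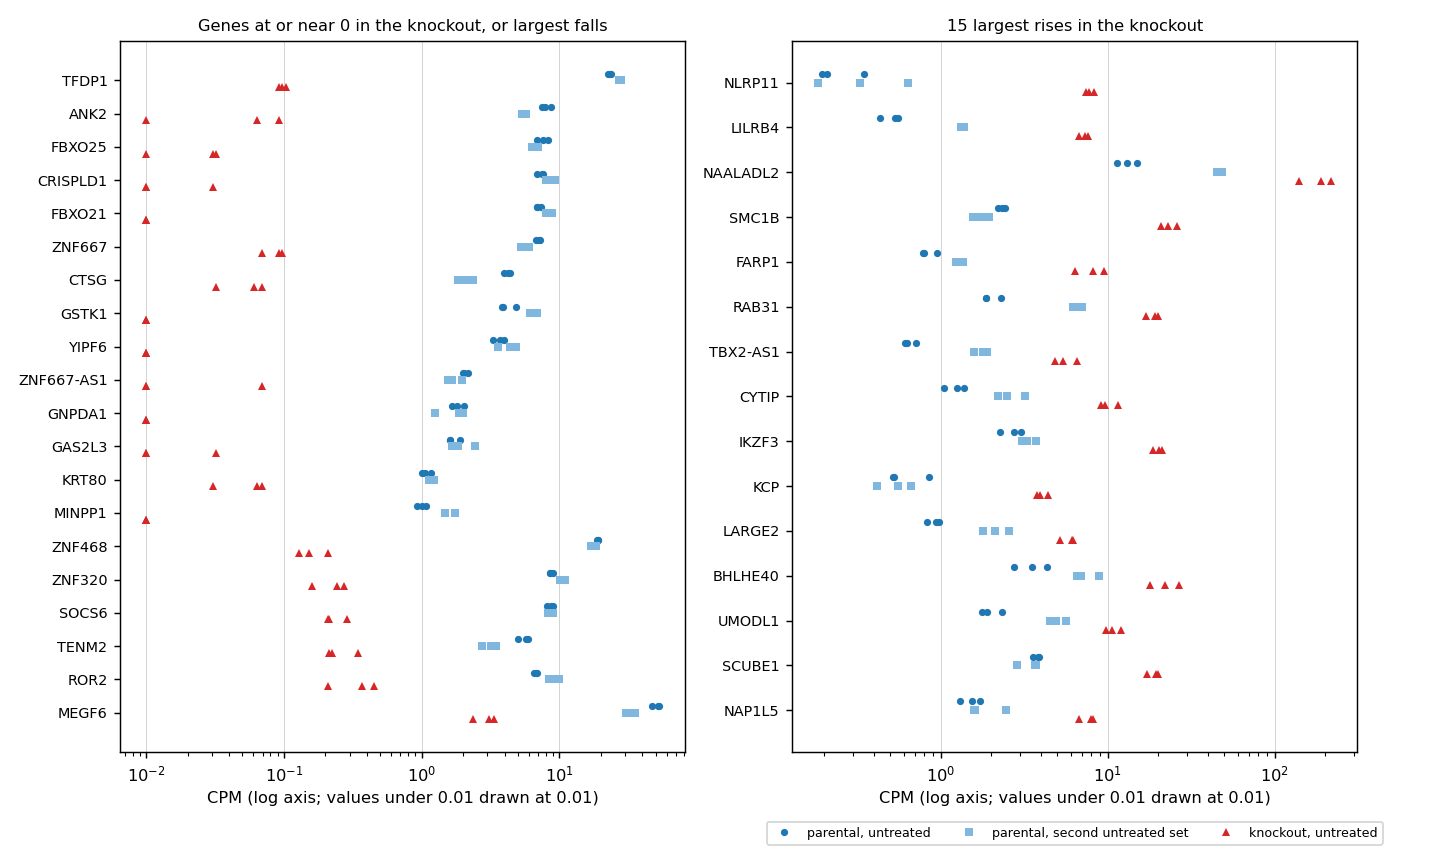
CPM per library on a log axis for the genes at or near 0 in the knockout and the other largest falls (left) and for the 15 largest rises (right), with 3 untreated parental, 3 second-set parental and 3 untreated knockout libraries each. For every gene drawn the knockout libraries lie outside the range of the 3 parental libraries, and for the falls the second parental set lies well above the knockout as well.

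Of the 25 tested neighbours of these 14 genes along the chromosomes, 6 were lower, 1 was higher and 18 were not called. Among all genes tested 11.8% were lower and 15.3% higher, 27.1% in either direction. Whether the neighbours differ from all genes was not tested. The lowest was KSR2, next to FBXO21, which fell by 1.88 on the log2 scale (not called against the second parental set, adjusted p = 0.0555). FBXW8, on the other side of FBXO21, was at 0.09 and not called.

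Next in size were 6 falls from a clear parental level to a small remainder. ZNF468 was 18.9, 19.0 and 19.1 CPM in the parental cells and 0.209, 0.153 and 0.128 CPM in the knockout (log2 -6.82 ± 0.14). ZNF320, the next tested gene on chromosome 19, went from 8.54, 8.57 and 8.99 CPM to 0.243, 0.275 and 0.161 CPM (log2 -5.22 ± 0.16). Both encode KRAB zinc finger proteins, a class of DNA-binding repressors; ZNF28 and ZNF888 on their outer sides were at -0.14 and -0.24. SOCS6, a member of the suppressor of cytokine signalling family, fell by 5.13 ± 0.16 on the log2 scale, from 8.06 to 8.99 CPM down to 0.209 to 0.289 CPM. TENM2, a cell-adhesion teneurin, fell by 4.38 ± 0.19. ROR2, a receptor for Wnt ligands, fell by 4.24 ± 0.17, and MEGF6, a protein of EGF-like repeats, fell by 4.08 ± 0.11. MEGF6 had the highest parental level of these, 46.5 to 52.8 CPM, and kept 2.34 to 3.37 CPM.

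The largest rises included several immune genes. NLRP11, a member of the NOD-like receptor family, was 0.194, 0.347 and 0.209 CPM in the parental cells and 7.44, 7.71 and 8.32 CPM in the knockout (log2 5.01 ± 0.17, 32.2-fold). LILRB4, an inhibitory receptor of the leukocyte receptor complex on the same chromosome, was 0.436, 0.531 and 0.557 CPM against 7.61, 6.76 and 7.29 CPM (log2 3.85 ± 0.13). The second parental set had 0.185 to 0.634 CPM of NLRP11 and 1.33 to 1.39 CPM of LILRB4, so the knockout was above all 6 parental libraries for both. The genes beside them differed far less: around LILRB4, LILRB1 was at -0.11 and not called and RDH13 rose by 0.26 (adjusted p = 0.0343), and around NLRP11 neither EPN1 nor ZNF787 was called, each at 0.13.

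IKZF3, which encodes the Ikaros-family factor Aiolos that marks the step from pro-B to pre-B cells and later, rose from 2.76, 2.27 and 3.03 CPM to 20.4, 21.1 and 18.6 CPM (log2 2.92 ± 0.11), with 3.08 to 3.72 CPM in the second parental set. CYTIP, a haematopoietic regulator of integrin adhesion, rose by 3.06 ± 0.14, and BHLHE40, a transcriptional repressor of the clock and stress response, by 2.68 ± 0.18. SMC1B, a cohesin subunit normally used in meiosis, rose from 2.20, 2.43 and 2.33 CPM to 26.2, 23.03 and 21 CPM (log2 3.36 ± 0.10). NAALADL2 changed from 14.95, 13 and 11.4 CPM to 141, 190 and 218 CPM (log2 3.83 ± 0.17), but the second parental set was already at 45.1 to 48.2 CPM, against which the difference was 1.95. The other rises in this group were FARP1 (3.26), RAB31 (3.23), TBX2-AS1 (3.12), KCP (2.72), LARGE2 (2.70), UMODL1 (2.46), SCUBE1 (2.36) and NAP1L5 (2.34). Each of the 15 was called in the same direction under prednisolone, with log2 fold changes from 1.496 (UMODL1) to 7.54 (NLRP11).

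Among genes of B-cell precursor identity, 39 of 41 members were tested; 10 rose (25.6%) and 14 fell (35.9%), both above the shares among all genes, and the median log2 was -0.11. The same list gave 6 rises and 20 falls against the second parental set. The core identity genes stayed high. PAX5 was 704, 709 and 710 CPM in the parental and 587, 634 and 512 CPM in the knockout libraries (log2 -0.27 ± 0.07), EBF1 fell by 0.16 ± 0.05, and CD79A did not pass the test, at -0.13. The PAX5 call is lost when parental replicate 1, 2 or 3 is left out (adjusted p up to 0.0787), and so is that of EBF1, also without knockout replicate 1 (up to 0.124). The 14 falls become 9 without any 1 parental library. DNTT, the polymerase that adds bases at V(D)J joints, fell from 663, 652 and 617 CPM to 373, 429 and 359 CPM (log2 -0.71 ± 0.07), yet the second parental set was at 373 to 478 CPM. FLT3, the receptor tyrosine kinase of early progenitors, fell by 0.95 ± 0.10, from 7.24 to 8.28 CPM down to 3.79 to 4.21 CPM, and was 5.79 to 6.36 CPM in the second set. VPREB3, a partner of the pre-B receptor, fell by 0.85 ± 0.09, and CD37, a B-cell tetraspanin measured below 1 CPM, changed by -1.37. Beside IKZF3, SPIB, an ETS factor of B cells, rose by 1.57 ± 0.15, but its 3.00 to 4.10 CPM in the knockout matched the 2.95 to 3.23 CPM of the second parental set.

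Of 28 genes of later B cells and plasma cells 14 were tested and 8 rose (57.1%, against 15.3% of all genes), with 0 lower by edgeR (1 lower at an unadjusted p under 0.05, and 1 by DESeq2). In the comparison with the second parental set 6 were higher and 6 lower, so the list did not move in 1 direction there. IGHD, the delta heavy chain, rose from 59.5, 65.8 and 65.7 CPM to 97.4, 111 and 84.3 CPM (log2 0.64 ± 0.09) and was 31.4 to 39.1 CPM in the second set. SDC1, which encodes the plasma cell marker CD138, rose from 34.6, 37.3 and 37.9 CPM to 55.2, 53.2 and 57.2 CPM (log2 0.62 ± 0.06), and stood at 31.4 to 34.5 CPM in the second set. The knockout thus lay above all 6 untreated parental libraries for these 2 genes. TNFRSF13B, the receptor TACI, rose by 2.31 ± 0.41 at under 2.1 CPM, and PRDM1, which encodes the plasma cell factor BLIMP1, by 0.83 at under 1.5 CPM (not called without parental replicate 1 or knockout replicate 2). CD38 rose by 0.47 ± 0.06, to 82.8 to 93.7 CPM, near the 80.7 to 83.7 CPM of the second set. JCHAIN had a log2 difference of 1.68 against the first parental set and -2.11 against the second, so its direction depends on the parental set.

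Among T-cell and myeloid genes falls outnumbered rises. Of 27 T-cell genes 11 were tested; 6 fell (54.5%) and 1 rose, with a median of -0.50, and 6 fell against the second parental set. CD247, the zeta chain of the T-cell receptor complex, fell by 1.45 ± 0.41 (not called without parental replicate 1 or 2, adjusted p up to 0.0966), TRAC, the alpha constant segment, from 4.69 to 5.35 CPM down to 2.05 to 2.66 CPM (log2 -1.02), and BCL11B, a T-lineage factor, by 0.72 ± 0.10. Of 30 myeloid genes 10 were tested; 5 fell (50%) and 0 rose by edgeR (0 at an unadjusted p under 0.05, and 0 by DESeq2), with a median of -0.56, and 8 fell against the second parental set. The 5 of the main comparison are CTSG, above, MPO (1.07, 1.02 and 1.03 CPM against 0.0695, 0.153 and 0.0963 CPM; log2 -3.21 ± 0.29), which encodes the enzyme of neutrophil granules, LYZ (lysozyme, -0.89, not called without parental replicate 1 or knockout replicate 2), CEBPA (the granulocyte factor C/EBP alpha, -1.06 ± 0.15) and CD33 (-0.80 ± 0.12). CTSG and MPO were near 0 in the knockout and passed the filter on low counts only through the parental libraries. A call for either could therefore only be a fall, and neither bears on the direction of the list. CD247 of the T-cell list was near that filter too, at 0.452, 0.55 and 0.0963 CPM in the knockout. Of 16 genes of NK and cytotoxic cells 4 were tested, of which 2 fell and 1 rose. The granzyme genes GZMA and GZMK changed by -2.45 ± 0.30 and -1.72 ± 0.25, and the receptor gene KLRK1 by 1.89 ± 0.27 at under 1 CPM, where the second parental set (0.572 to 0.836 CPM) overlapped the knockout (0.695 to 0.826 CPM). The second parental set had higher GZMA than the first, 8.07 to 9.22 CPM, so the knockout was below both. KIT, the stem cell factor receptor, went the other way, from 12.5, 13.1 and 13.5 CPM to 30.3, 33.9 and 27.9 CPM (log2 1.26 ± 0.08), with 8.39 to 9.42 CPM in the second set. Of 20 erythroid and megakaryocyte genes 3 were tested and 2 of these rose, EPOR, the erythropoietin receptor, by 0.80 ± 0.14 and the integrin gene ITGB3 by 1.01 ± 0.24, both at under 2.4 CPM. In such bulk libraries fewer cells of a type and less RNA per cell cannot be told apart. The summed level of the T-cell list was 183 to 191 CPM in the parental and 142 to 154 CPM in the knockout libraries, and that of the myeloid list 153 to 155 against 129 to 138 CPM.

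Antigen presentation genes were more often higher in the knockout. All 32 members were tested; 16 rose (50%) and 0 fell by edgeR (0 at an unadjusted p under 0.05, and 0 by DESeq2), with a median log2 of 0.22, and leaving out any 1 library gave 13 to 17 rises. With the second parental set as the reference 17 rose and 3 fell. Among all genes tested the median was -0.008. PSMB9, a subunit of the immunoproteasome, rose from 47.2, 46.1 and 43.4 CPM to 66.2, 67.3 and 65.8 CPM (log2 0.57 ± 0.05). NLRC5, the activator of class I genes, rose by 0.52 ± 0.07 and the peptide transporter TAP1 by 0.38 ± 0.05. The class II genes HLA-DQB1 (0.49 ± 0.05) and HLA-DOA (0.44 ± 0.05) rose as well. HLA genes are close copies of one another and vary between people, so reads can be lost or assigned to the wrong gene. The interferon-stimulated genes, which often move with antigen presentation, did not go 1 way here: of 43 tested 9 rose (20.9%) and 8 fell (18.6%). Against the second parental set 8 rose and 13 fell. In the main comparison the median was -0.01, and the member that changed most, GBP2, fell by 2.23. The rises were 5, 4 and 5 without parental replicates 1, 2 and 3 and 5 without knockout replicate 1, and the falls 5 without parental replicate 2 or 3.

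Proliferation genes differed by small amounts against the first parental set, and their counts depended on the libraries compared. Of 42 DNA replication genes 15 fell (35.7%) and 1 rose, with a median of -0.12. ORC6, a subunit of the origin recognition complex, fell from 78.4, 78.3 and 78.5 CPM to 62.03, 57.7 and 67.0 CPM (log2 -0.31 ± 0.06), and GINS3, of the replicative helicase, by 0.31 ± 0.06. CCNE2, cyclin E2, was the member that rose (0.46 ± 0.11, not called without parental replicate 2 or 3), and knockout replicate 3 was the highest of its libraries at 119 CPM. Leaving out knockout replicate 3 gave 22 falls, leaving out knockout replicate 2 gave 9, and leaving out parental replicate 1, 2 or 3 gave 5, 4 and 4. Against the second parental set 8 fell and 4 rose, and with prednisolone 34 of the 42 were lower in the knockout. Of 42 mitosis genes 7 fell (16.7%) and 3 rose; MKI67, the Ki-67 antigen, was 411 and 454 CPM in knockout replicates 1 and 2 but 257 CPM in replicate 3, against 263 to 269 CPM in the parental cells. Without knockout replicate 3 there were 17 falls and 7 rises among the mitosis genes. The falls numbered 2, 3 and 2 without parental replicates 1, 2 and 3, with 0, 0 and 1 rises, and 3 without knockout replicate 2. Of the 42 mitosis genes 33 fell against the second parental set and 3 rose, and with prednisolone 29 were lower in the knockout.

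Outside the lists, CCND2, cyclin D2, was named after its values were seen: it fell from 3.97, 3.96 and 3.48 CPM to 0.209, 0.459 and 0.321 CPM (log2 -3.47 ± 0.20). Replication-dependent histone genes, whose mRNAs peak in S phase, went against the replication genes: of 49 tested 33 rose (67.3%) and 2 fell, with a median of 0.25. H3C12 rose from 216, 210 and 226 CPM to 327, 316 and 305 CPM (log2 0.56 ± 0.05) and was 272 to 280 CPM in the second parental set. Against that second set only 4 histone genes were higher and 4 lower, and under prednisolone 6 were higher and 3 lower. These genes are near-identical copies, so their single values are uncertain.

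Glycolysis and hypoxia-response genes formed the list with the highest share of rises among those drawn in the plot of gene lists. Of 35 members 31 were tested; 24 rose (77.4%, against 15.3% of all genes) and 0 fell by edgeR (1 at an unadjusted p under 0.05, and 0 by DESeq2), and leaving out any 1 library gave 19 to 25 rises. The median log2 was 0.35. PFKFB4, a kinase that makes the glycolytic activator fructose 2,6-bisphosphate, rose from 8.75, 8.35 and 12 CPM to 32.0, 25.7 and 23.7 CPM (log2 1.505 ± 0.15). ALDOC, an aldolase, rose from 51.5, 53.1 and 53.4 CPM to 114, 101 and 106 CPM (log2 1.04 ± 0.05), and BNIP3, a mitophagy receptor induced by hypoxia, from 65.1, 70.5 and 78.0 CPM to 148, 137 and 140 CPM (log2 1.02 ± 0.07). Its relative BNIP3L rose by 0.71 ± 0.06, PFKFB3 by 0.76 and HK1, the first enzyme of glycolysis, by 0.64 ± 0.05. The second parental set was itself raised for PFKFB4 (16.2 to 20.5 CPM) and ALDOC (86.3 to 90.3 CPM), and against it 19 of the 31 members were higher and 3 lower. With prednisolone 14 were higher and 1 lower.

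Cholesterol genes rose in smaller steps: of 30 tested 18 rose (60%) and 1 fell, with a median of 0.20. MVD and LSS, enzymes of the mevalonate and sterol steps, rose by 0.50 ± 0.05 and 0.44 ± 0.06, and ABCA1, the cholesterol exporter, fell from 52.7, 50.7 and 50.7 CPM to 36.9, 36.4 and 35.1 CPM (log2 -0.48 ± 0.05). Leaving out parental replicate 1, 2 or 3 left 7, 8 and 8 rises, and against the second parental set there were 3 rises and 6 falls. Genes of the ATF4 amino acid stress response were more often lower against the first parental set: of 31 tested 14 fell (45.2%, against 11.8% of all genes) and 1 rose, with 9 falls when parental replicate 3 was left out. Against the second parental set 8 fell and 4 rose, and 5 of the 14 falls lay outside the range of all 6 untreated parental libraries. The share of all called genes outside that range is not given here, so this count has no background. DDIT3, the stress factor CHOP, fell from 18.0, 18.3 and 19.0 CPM to 10.8, 9.51 and 10.98 CPM (log2 -0.80 ± 0.07), and CHAC1, which degrades glutathione, by 0.77 ± 0.07; both were also below the second parental set. SLC7A11, the cystine transporter, fell by 0.82 ± 0.09 but was 15.8 to 16.7 CPM in the second set, against 14.5 to 18.9 CPM in the knockout.

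**Figure D2:**
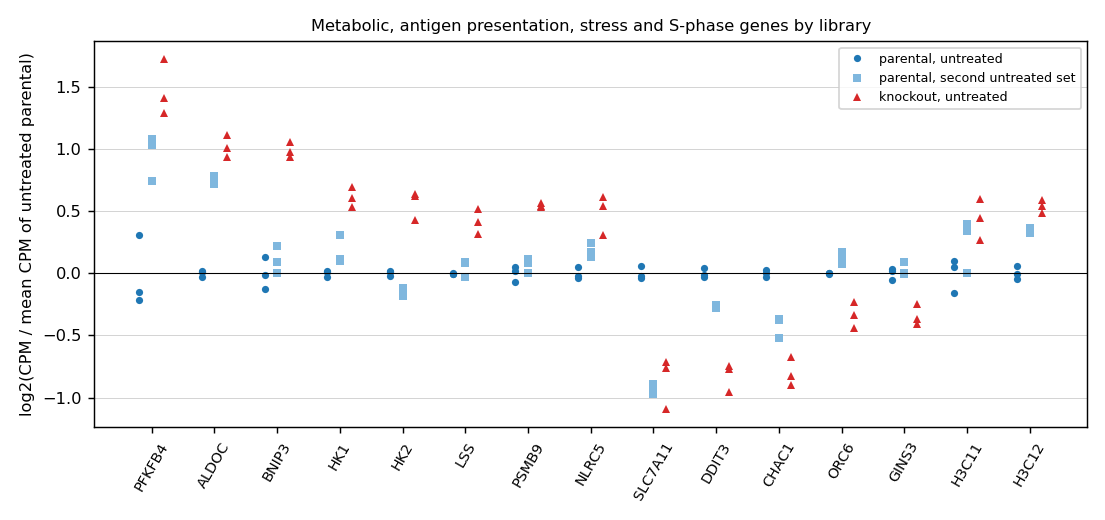
Levels of 15 genes in each library as the log2 ratio to the mean CPM of the 3 untreated parental libraries, with the 3 libraries of the second untreated parental set and the 3 of the untreated knockout beside them. Knockout levels of PFKFB4, ALDOC, BNIP3, HK1 and PSMB9 lie above both parental sets, DDIT3 and CHAC1 below both, and SLC7A11 overlaps the second set.

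**Figure D3:**
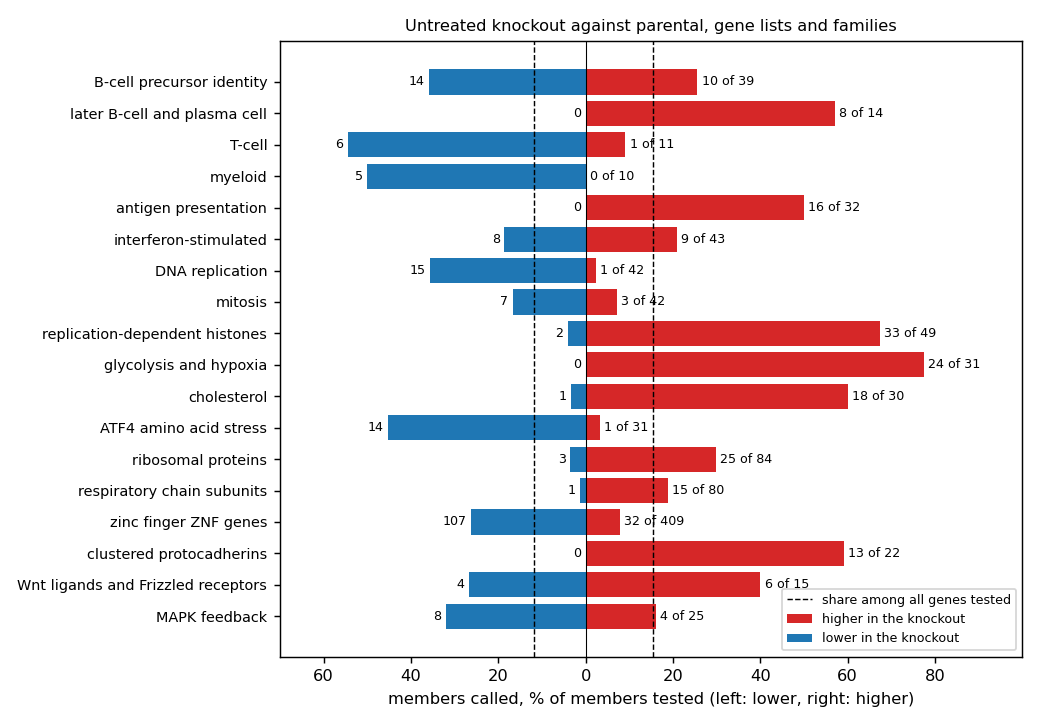
Share of tested members called higher (right) and lower (left) in the untreated knockout for 18 gene lists and families, with the number called beside each bar. Dashed lines give the shares among all genes tested, 15.3% higher and 11.8% lower.

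Ribosomal protein genes showed 25 rises and 3 falls among 84 tested (29.8% and 3.57%), with a median log2 of only 0.10. Leaving out parental replicate 1, 2 or 3 left 7, 6 and 8 rises. The balance turned against the second parental set, with 2 rises and 15 falls, while under prednisolone 70 of the 84 were higher and 4 lower.

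Wnt receptors changed without a common direction. Of 49 Wnt ligand, receptor and co-receptor genes 15 were tested; 6 rose (40.0%) and 4 fell (26.7%), and 8 rose and 2 fell against the second parental set. ROR2 was 6.56, 6.71 and 6.84 CPM in the parental cells and 0.209, 0.367 and 0.450 CPM in the knockout, while its paralog ROR1, below 1.2 CPM in the parental cells, rose to 2.54, 2.60 and 1.96 CPM (log2 1.30 ± 0.18). LRP5, a Wnt co-receptor, had 30, 28 and 47 counts in the parental libraries and 0, 0 and 1 in the knockout, a ratio of 57.8 (95% exact counting interval 10.1 to 2.3e+03). FZD6, a Frizzled receptor, rose from 4.26, 3.999 and 4.11 CPM to 8.76, 9.63 and 10.9 CPM (log2 1.27 ± 0.10), and WNT3, a ligand, from 0.937, 1.16 and 0.871 CPM to 3.20, 2.91 and 2.73 CPM (log2 1.60 ± 0.15). Of 16 Wnt target genes 9 were tested, with 3 higher (33.3%) and 2 lower (22.2%). There were 4 lower without knockout replicate 3, and 2 higher and 5 lower against the second parental set. LEF1, at once a target and a TLE partner, fell from 509, 535 and 530 CPM to 413, 418 and 372 CPM (log2 -0.36 ± 0.06). ZNRF3, a feedback ubiquitin ligase of the pathway, rose by 0.43 ± 0.07; APCDD1 rose by 0.64 ± 0.06 but was 17.6 to 19.3 CPM in the second parental set, as in the knockout (17.9 to 19.2 CPM).

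Of 17 glucocorticoid-responsive genes 14 were tested in these untreated cells, with 4 lower (28.6%) and 2 higher (14.3%). Against the second parental set 4 were lower and 5 higher. In the main comparison the median was 0.01, and the higher share was near the 15.3% of all genes. The higher count was 1 without knockout replicate 1 or any 1 parental library, and 4 without knockout replicate 3. TSC22D3, which encodes the glucocorticoid-induced protein GILZ, was 19.6, 23.4 and 21.9 CPM in the parental cells and 7.26, 7.03 and 7.87 CPM in the knockout (log2 -1.52 ± 0.09), with 12.2 to 12.5 CPM in the second set. NR3C1, the glucocorticoid receptor gene, fell from 243, 240 and 241 CPM to 143, 155 and 163 CPM (log2 -0.62 ± 0.06), with 207 to 233 CPM in the second set. The knockout was below all 6 untreated parental libraries for both genes.

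Cytokine and death-receptor genes changed at low levels. Of 19 tested members of the TNF superfamily 5 rose and 5 fell (26.3% each; 7 and 7 against the second parental set), with 3 falls when parental replicate 2, parental replicate 3 or knockout replicate 3 was left out. TNF fell from 1.70, 1.67 and 1.59 CPM to 0.313, 0.459 and 0.289 CPM (log2 -2.18 ± 0.20). TNFRSF10A, the TRAIL death receptor DR4, fell by 1.82 ± 0.22, while TNFRSF10D, a TRAIL decoy receptor without a working death domain, rose from 4.04, 4.69 and 4.72 CPM to 10.1, 9.45 and 8.19 CPM (log2 1.07 ± 0.11). IL1B fell by 2.42 ± 0.15. Among 19 tested NF-kB genes 3 rose (15.8%) and 5 fell (26.3%), with a median of -0.01. Against the second parental set 3 rose and 6 fell. BIRC3 rose by 1.65 and TRAF1 by 1.06, and 2 of the falls in the main comparison were of at least 1. Of 22 tested Notch genes 8 rose (36.4%) and 3 fell (13.6%), and 4 rose and 4 fell against the second parental set. Among Notch ligands DLL3 rose from 4.31, 4.41 and 4.44 CPM to 14.8, 12.3 and 11.6 CPM (log2 1.58 ± 0.10), while DLL1, below 0.7 CPM in the parental cells, fell by 2.50. Of 28 tested TGF-beta and BMP genes 7 rose (25%) and 4 fell (14.3%), with a median of 0.12. With 1 library left out there were 5 to 10 rises and 2 to 5 falls. Against the second parental set 10 rose and 4 fell. The inhibitor SMAD7 fell from 15.2, 15.6 and 16.4 CPM to 7.61, 7.65 and 7.55 CPM (log2 -1.03 ± 0.07), and the effector SMAD3 rose by 1.21 ± 0.15. S1PR1, a receptor for exit from lymphoid tissue, rose by 2.104 but was 4.03 to 5.13 CPM in the second parental set, close to its 5.87 to 5.90 CPM in the knockout. S100A16, a calcium-binding protein, fell from 32.8, 31.9 and 31.3 CPM to 1.84, 2.11 and 2.44 CPM (log2 -3.88 ± 0.09), and its relative S100A10 rose by 1.17 ± 0.12.

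Some changes were shared by neighbours on a chromosome. Tested protein-coding genes were put in order, and 15 runs of at least 5 consecutive genes called in 1 direction were found. The longest stretch lies on chromosome 10 from PIP4K2A to CREM, where 29 of 30 tested genes were higher and the exception, ODAD2, was not called. The median log2 over the 30 genes was 0.48, a 1.39-fold difference, against -0.02 over the other 428 tested genes of the chromosome. Next to it, 20 tested genes before the stretch had 6 rises and 1 fall (median 0.17), and the 20 after it had 4 rises and 4 falls (median -0.06). The stretch was chosen after its values were seen. Its genes have varied functions: ITGB1, the integrin beta-1 chain, rose from 68.1, 69.3 and 69.1 CPM to 104, 107 and 116 CPM (log2 0.69 ± 0.05), ZEB1, a zinc finger repressor, by 0.66 ± 0.06, MAP3K8, a kinase of the ERK pathway, by 0.73 ± 0.11, BAMBI, a TGF-beta pseudoreceptor, by 1.56 ± 0.25, and OTUD1, a deubiquitinase, from 7.36, 8.02 and 8.39 CPM to 26.9, 26.4 and 25.4 CPM (log2 1.75 ± 0.07). Under prednisolone 28 of the 30 were called higher, with a median of 0.51. DNA copy number was not measured.

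**Figure D4:**
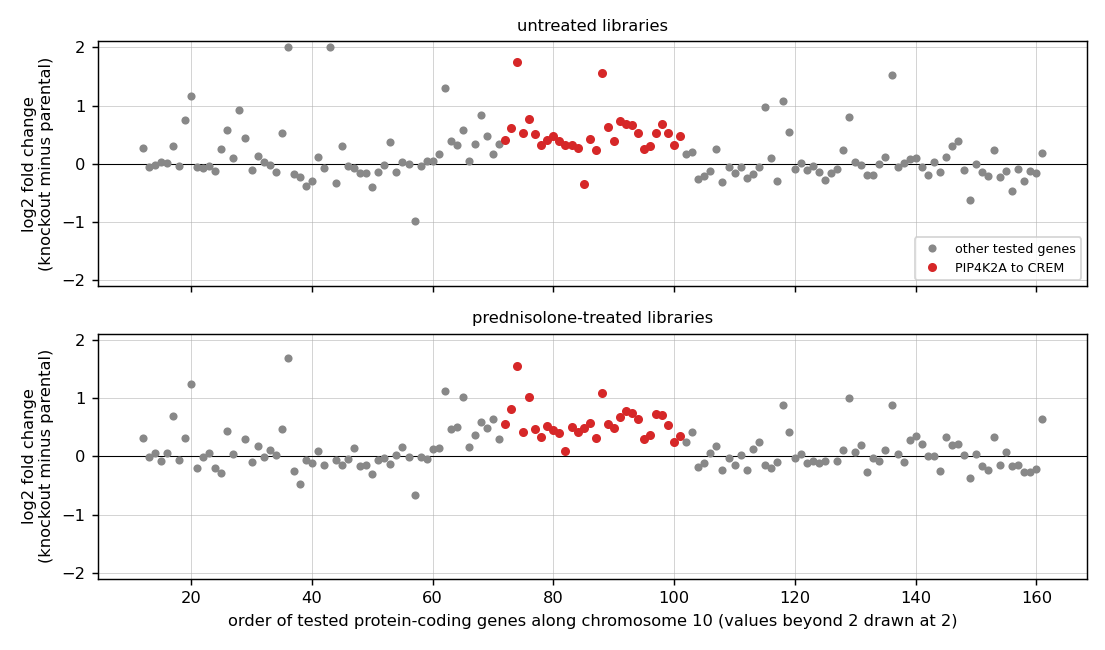
Log2 fold change (knockout minus parental) of tested protein-coding genes in their order along part of chromosome 10, for untreated libraries (top) and prednisolone-treated libraries (bottom). The stretch from PIP4K2A to CREM lies mostly between 0.2 and 0.8 in both panels, and the medians of the 20 genes before and the 20 after it were 0.17 and -0.06 in the untreated libraries, with 16 of the 20 before it above 0.

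The protocadherin clusters on chromosome 5, arrays of adhesion genes each with its own promoter, gave 13 rises (59.1%, against 15.3% of all genes) and 0 falls by edgeR among 22 tested members (1 fall at an unadjusted p under 0.05, and 0 by DESeq2), with a median log2 of 0.71. Leaving out parental replicate 3 left 8 rises, and 16 rose against the second parental set. A run of 10 neighbouring gamma genes, PCDHGB2 to PCDHGB6, rose with a median of 1.10. PCDHGA6 was 2.49, 2.92 and 2.47 CPM in the parental cells and 6.22, 6.76 and 5.01 CPM in the knockout (log2 1.22 ± 0.13), and PCDHGB2 rose from 1.83, 2.00 and 1.69 CPM to 5.56, 5.26 and 4.33 CPM (log2 1.48 ± 0.13). In the second parental set both were lower still, 1.12 to 1.29 and 1.20 to 1.54 CPM. The gamma genes share their last exons and overlap one another, so reads may be assigned to more than 1 of them or to none, and the single values are uncertain.

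**Figure D5:**
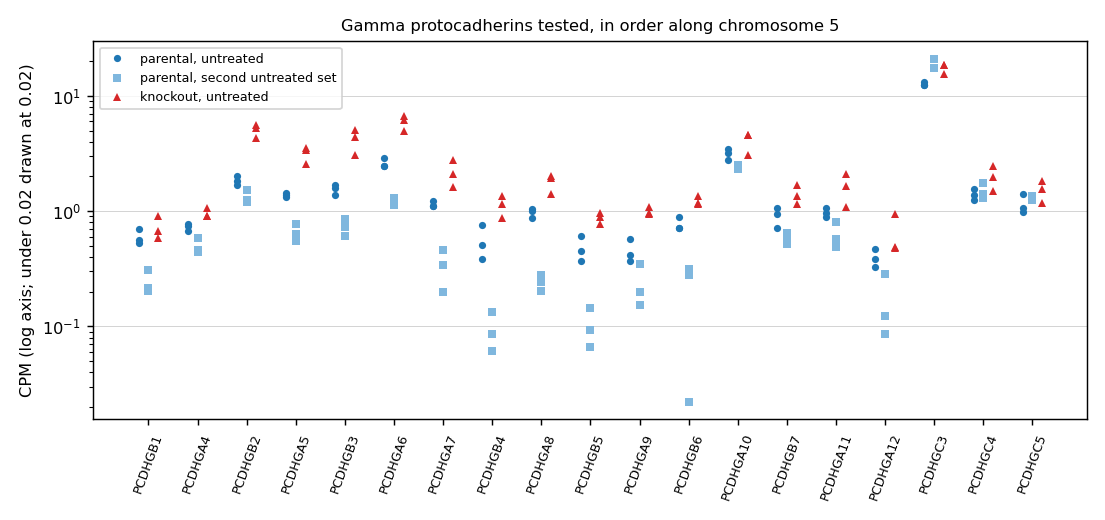
CPM per library on a log axis for the tested gamma protocadherin genes in their order along chromosome 5. From PCDHGB2 to PCDHGB6 the 3 knockout libraries lie above the 3 parental libraries, which in turn lie above the second parental set.

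Zinc finger genes of the ZNF series fell more often than they rose: of 409 tested 107 were lower (26.2%, against 11.8% of all genes) and 32 higher (7.82%, against 15.3%), with a median of -0.09. Without parental replicates 1, 2 and 3 in turn the falls numbered 55, 61 and 57, without knockout replicate 2 there were 68, and the rises were 14, 14 and 18 without the parental replicates and 57 without knockout replicate 3. Against the second parental set 66 fell and 81 rose. ZNF516 fell from 20.96, 22.1 and 22.7 CPM to 2.36, 2.94 and 2.86 CPM (log2 -2.98 ± 0.09), and ZNF525 rose from 11.5, 13.5 and 13.4 CPM to 25.2, 22.8 and 29.02 CPM (log2 1.03 ± 0.10). On chromosome 19 a run of 7 such genes from ZNF461 to ZNF420 was lower, with a median of -0.56. Only 1 of the 7 lay outside the range of all 6 untreated parental libraries, a count given without its share over all called genes. Under prednisolone 2 of the 6 tested were lower.

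Not every smaller run is described here. On chromosome Y a run of 5 genes from USP9Y to EIF1AY was higher, with a median of 1.03, and all 5 were called higher under prednisolone. Of the 9 tested protein-coding genes of chromosome Y, 5 were higher (55.6%) and 3 lower (33.3%), so the run does not stand for the whole chromosome. Other smaller runs held immune genes. LTA, TNF, LTB, LST1 and AIF1, neighbours in the major histocompatibility complex on chromosome 6, were all lower, with a median of -1.94, although LTB passed the test in 1 of 6 fits with a library left out; AIF1, a macrophage-associated gene, fell from 2.52, 2.67 and 2.86 CPM to 0.348, 0.398 and 0.514 CPM (log2 -2.64 ± 0.18). On chromosome 4 a run of 6 genes from KLF3 to TMEM156 was higher. It holds the Toll-like receptor genes TLR10 (1.02 ± 0.11), TLR1 (0.45 ± 0.08) and TLR6 (1.03 ± 0.14). Of 6 tested Toll-like receptor genes 4 rose (66.7%) and 2 fell (33.3%), and 1 rose and 0 fell against the second parental set. TLR10 rose from 2.79, 2.37 and 2.28 CPM to 4.97, 4.92 and 5.04 CPM and was 3.23 to 4.14 CPM in the second parental set, against which TLR1 and TLR6 did not pass the test (adjusted p = 0.336 and 0.107).

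Promoter windows were compared for what the expression test did not use. A ratio of observed to expected CG of at least 0.6 was found in 81.2% of the 10681 tested genes with a window. The share was 60.4% of 265 genes that rose by at least 1 and 52.2% of 203 that fell by at least 1, and 8 of 11 genes near 0 in the knockout (72.7%). The letters CTTTGA, the core of a TCF/LEF motif, searched on both strands, were present in 8.87% of all windows, 10.2% of those of rising genes and 10.8% of those of falling genes. The RUNX core TGTGGT was present in 9.47%, 13.2% and 9.36% of windows in the same order. These are descriptions of the letters in 300-base windows and were not tested.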

How the data were processed

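Counts per gene were deposited by the authors as raw whole-number read counts in the layout of STAR's gene count files, with 3 columns per library (unstranded and each strand). The submitters' processing notes name hg19, Bowtie2 and DESeq2 without roles or versions; the aligner settings and annotation release are not given in the sources used here. Column 4 was used because it held 13.8 to 14.4 times the total of column 3; column 2 was an alternative. Rows that name no gene (40.4% to 44.9% of a library) were left out. Of 62446 gene IDs 40678 carry a symbol; gene order came from GENCODE v29. Groups follow the titles, since the treatment protocol in the labels assigns the drugs differently.

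The comparison was fitted on its 6 libraries with edgeR 4.0.16 (R 4.3.3; filterByExpr, TMM, quasi-likelihood F test, Benjamini-Hochberg), called at an adjusted p under 0.05; standard errors come from the F statistic. The script was tested on simulated data. CPM are counts per 1000000 gene counts. Ratios for genes near 0 pool the libraries and have exact binomial 95% intervals, and genes at 0 are set against 3 counts (0.104 CPM); both cover counting error only. P-values measure the spread between these libraries. Named are TLE1 and the 15 largest rises and falls with an average log2 CPM of at least 1 and no overlap. So are genes near 0 in 1 group, defining markers and members of some of the runs. In each list or family up to 6 called members with the largest change are named. Genes outside this rule are CCND2 and TFDP2, named after their values were seen, and the neighbours and members given for contrast. The members and the 25 lists and 39 families were chosen with earlier results of these data known.

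Alternatives were DESeq2 1.42.0, RLE size factors, 2 other filters, robust moderation, column 2, 5 groups in 1 fit, the replicate block, each library left out, and the second parental set. Promoter windows are from RefSeq GRCh38.p14. Cell line CEM was not analysed here. A few members of the lists are counted but not reported by name here.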

Additional observations from a re-analysis of the deposited data

How the results depend on the processing

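The number of genes called was 4655; it ranged from 4226 (column 2) to 5474 (no filter) over RLE size factors, DESeq2, robust moderation, both filters, column 2 and 5 groups in 1 fit, and was 5961 against the second parental set, of which 2421 were also called in the main comparison. With 1 library left out it ran from 2804 to 6732, the calls with a log2 difference of 1 or more in either direction from 687 to 939, and those under prednisolone from 4443 to 5574. The calls of at least 1 fell from 792 to 457 when 10 counts were required in every library, a filter that removes genes near 0. Same-numbered libraries of the 2 lines did not deviate together (r = -0.13, 0 and -0.01 across genes), and knockout replicate 1 correlated best with parental replicate 2 (0.11); the numbers were therefore not taken as pairs, and a fit with the replicate number as a block called 3546 genes, 756 by at least 1, and 6040 under prednisolone.

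Against the second parental set 5 named genes changed sign to negative: TLE6 (-0.17), VPREB1 (-0.078), JCHAIN (-2.11), XBP1 (-0.16) and APCDD1 (-0.001), and SLC7A11 became positive (0.059); the cause was not tested. TLE4, not called, was 0.005 with column 2 and ran from -0.033 to 0.006 with 1 library left out. Depth limits the knockout most: at 28777002 counts a gene at 0 may reach 0.104 CPM.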
